A study of Mus musculus with 36 samples.

Results

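The whole colon was compared with the jejunum, the middle section of the small intestine, in gene expression arrays of the mouse gut. The comparison used every array titled colon or jejunum, 18 of the 36 arrays of the series. Each segment had 3 pools. Every pool was hybridised to 3 array designs, A, B and C, whose probe sets (groups of short probes for 1 transcript) differ. Colon and jejunum came from male mice of the outbred strain Hsd:ICR(CD-1), aged 8 weeks and kept on standard chow, with neither treatment nor genetic change in either group. A pool combined the tissue of 10 mice, so the pools, and not single mice, were the replicates. The wall of the segment was taken whole, and the colon was not split into a proximal and a distal part, so that each value is an average over epithelium, muscle, nerve, vessel and immune cells and, in the colon, over its length. In such tissue fewer cells of a type and less RNA per cell cannot be told apart.

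The jejunum is the main site at which fat, sugars, peptides and amino acids are digested at the brush border and taken up by villus enterocytes, which also carry enzymes that break down drugs and plant compounds. The colon has no villi and normally no Paneth cells, the crypt-base cells that secrete antimicrobial peptides. Its epithelium absorbs salt, water and short-chain fatty acids made by bacteria, and its many goblet cells build a thick mucus layer.

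The authors had scaled the arrays to a common mean, so intensities carry their units, and precision is limited by the small number of arrays. The median intensity of an array differed with the segment. On set A it was 73.2 to 75.1 in the colon pools, against 48.6 to 66.5 in the jejunum pools. On set B the colon pools had medians of 105.4 to 110.5, the jejunum pools 85.8 to 98.0, and on set C the ranges 90.5 to 104.9 for colon and 85.9 to 96.8 for jejunum overlapped. Colon pools on array set A correlated at 0.962 to 0.967 with each other, jejunum pools at 0.948 to 0.965. Colon with jejunum pools correlated there at 0.859 to 0.881. On set B colon pools correlated at 0.901 to 0.906, jejunum pools at 0.885 to 0.903, and colon with jejunum pools at 0.825 at most. On set C the ranges overlapped, at 0.863 to 0.904 for colon, 0.846 to 0.892 for jejunum and 0.822 to 0.875 between segments. The probe sets behind these correlations are not independent of each other. Jejunum pools 2 and 3 stood apart in the control probe sets for 18S ribosomal RNA, which on array set A averaged 2712 to 7429 in the colon pools, against 7001, 91.5 and 80.1 in the jejunum pools. Its part in the results was not tested. Counts of gene lists are therefore also given from 2 further fits. The first has the class of 18S signal, high or low, as a block. The second uses only the 8 pools of all 4 segments in which the signal was high, and there jejunum pool 1 stands alone for the jejunum and is assumed to vary like the other groups. The 3' to 5' signal ratio of actin, a measure of RNA integrity, overlapped between colon (1.30 to 1.43) and jejunum (1.28 to 1.55) on array set A.

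Values were compared as log2 of the intensity plus 16, so a difference that involves dim values is smaller here than in log2 of the intensity alone. A call required an adjusted p below 0.05 in limma, a linear model over all probe sets. Of 36701 probe sets, 3371 (9.19%) were called between colon and jejunum, 2131 (5.81%) higher and 1240 (3.38%) lower in the colon, and 2683 (7.31%) were called with at least a 2-fold difference. The balance of directions depended on the scaling. With every array centred on its own median, 1164 probe sets were called higher and 1819 lower, since the median difference over all probe sets moved to -0.12, against 0.07 with the authors' scaling. There were 2733 calls with the 18S block and 1557 among the 8 pools of high 18S signal. Leaving out colon pool 3 left 1366 calls in the higher direction and leaving out jejunum pool 3 left 1404.

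For the description of genes 1 probe set stood for each of 15944 genes. Of these genes 14.4% were called, 8.8% higher and 5.55% lower in the colon, with a median log2 difference of 0.10. Colon and jejunum pools did not overlap in 32.5% of genes. With the 18S block 7.12% of genes were called higher and 4.33% lower, and among the 8 pools of high 18S signal 3.99% and 2.78%. With arrays centred on the median 4.75% were called higher and 7.98% lower. The counts of gene lists that follow are read against these shares and were not tested as lists.

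**Figure D1:**
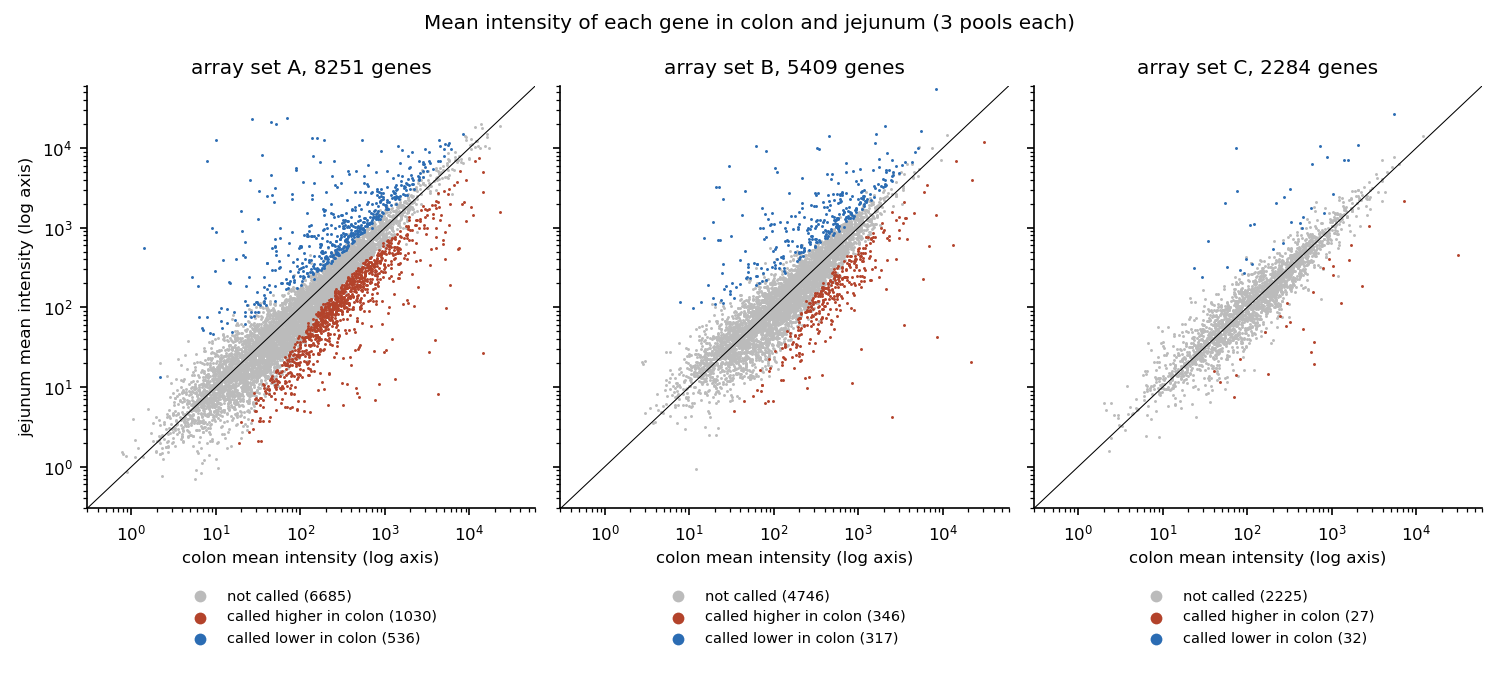
Mean intensity of each gene in the colon (x axis) and the jejunum (y axis), both on log axes, 1 panel for each array set. Red points were called higher and blue points lower in the colon, grey points were not called, and the line marks equal means. Genes such as Car1 and Cyp2c55 lie far below the line and Apoa1 and Fabp1 far above it.

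Of 31 measured genes listed as regional markers, 10 were called higher and 12 lower in the colon (8 and 12 with the 18S block and also in the 8 pools of high 18S signal). Car1, Muc2, Retnlb, Insl5 and Aqp8 marked the colon pools and Lct, Apoa4, Fabp1, Slc2a2 and Rbp2 the jejunum pools, as described below. Some probe sets did not separate the segments. Slc26a3, the chloride-bicarbonate exchanger of colonic surface cells, read 10.6, 9.6 and 9 in the colon pools, against 103, 19.1 and 29.8 in the jejunum pools. These values were below the array median in all colon pools, and the difference was not called (adjusted p = 0.22). The probe sets of Guca2a and Hoxd13 read at most 11.1 in every pool of both segments. Sis, the brush-border sucrase, read 3032, 3009.7 and 2489.9 in the colon pools, against 4032, 2053 and 2714 in the jejunum pools, and the segments overlapped (log2 difference 0.00).

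The largest rise among the genes the naming rule admits was that of Car1, the cytosolic carbonic anhydrase I that interconverts carbon dioxide and bicarbonate. Its intensity was 12552, 17370.4 and 14029 in the colon pools, against 41.6, 16.4 and 22.1 in the jejunum pools. Every colon pool was bright and every jejunum pool below the array median, and the pools did not overlap (log2 difference 8.45, SE 0.32, adjusted p = 1.49e-10). Lpo, lactoperoxidase, an enzyme that makes antibacterial oxidants, read 7849, 9277 and 8199.5 in the colon pools, against 83, 21.5 and 22.4 in the jejunum pools (log2 difference 7.34, SE 0.51, adjusted p = 6.91e-08). The jejunum pools were again dim, and the lowest colon pool lay far above the highest jejunum pool. Slc6a14 encodes a carrier that takes up neutral and cationic amino acids together with sodium and chloride, and it read 1961, 2302 and 3247 in the colon pools, against 4.7, 2.3 and 5.6 in the jejunum pools (log2 difference 6.93, SE 0.61, adjusted p = 1.06e-06). Cyp2c55, a cytochrome P450 that oxidises fatty acids, read 20013, 29068 and 44012 in the colon pools, against 686, 336 and 338 in the jejunum pools (log2 difference 6.05, SE 0.53, adjusted p = 4.68e-06). The colon pools differed about as much among themselves in Cyp2c55 as the jejunum pools did, and the segments stayed far apart.

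Saa2, a serum amyloid A acute-phase protein, rose by 6.36 on the log2 scale and Plet1, a surface protein of epithelial progenitors, by 6.28. Sptssb, a small subunit of the first enzyme of sphingolipid synthesis, rose by 5.55 and Ccn3, a matricellular protein, by 4.97 (adjusted p at most 4.36e-08 in these 4 genes). Mptx1, mucosal pentraxin, read 7081, 7451 and 2947 in the colon pools, against 252, 153 and 169 in the jejunum pools, with colon pool 3 the lowest of its group but still above every jejunum pool (log2 difference 4.73, SE 0.36, adjusted p = 4.04e-07). Gsdmc2, of the gasdermin family of pore-forming proteins, read 5458, 6604 and 5453 in the colon pools, against 143, 265 and 272 in the jejunum pools (log2 difference 4.64, SE 0.47, adjusted p = 6.21e-06). Tspan1, a tetraspanin of epithelial membranes, and Tfcp2l1, a transcription factor of epithelia, rose by 4.40 and 4.61 on the log2 scale. Wfdc2, a secreted protein with protease-inhibitor domains, rose by 4.42 and Hao2, a peroxisomal hydroxyacid oxidase, by 5.11. Second probe sets of Tfcp2l1, Hao2 and Wfdc2 were not called (log2 differences 0.46, 0.08 and 0.10). Those of Saa2, Sptssb and St6galnac6 and the middle one of Slc6a14 were called at smaller differences (2.32, 2.93, 3.84 and 3.53).

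Transcripts known only by clone names lay outside the rule for naming, and 2 were singled out after their values were seen. 1810065E05Rik read 17028, 23868 and 24053 in the colon pools, against 20.6, 10.4 and 31.2 in the jejunum pools, and its log2 difference of 9.23 exceeded that of Car1. 2610528A11Rik read 4209.7, 3948 and 4733 in the colon pools, against 6.5, 5.4 and 12.4 in the jejunum pools (log2 difference 7.49). Both were dim in every jejunum pool and bright in every colon pool.

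The largest falls included apolipoproteins, defensins and brush-border enzymes and carriers. Apoa1, an apolipoprotein of high-density lipoprotein and chylomicrons, read 39.9, 20.6 and 20.3 in the colon pools, against 28528, 18432 and 23224 in the jejunum pools. Its colon pools were below the array median and its jejunum pools among the brightest values of the array, and the pools did not overlap (log2 difference -9.10, SE 0.26, adjusted p = 6.27e-12). Fabp1, the liver-type fatty acid binding protein of villus enterocytes, read 11.4, 9 and 10.1 in the colon pools, against 17310.1, 12647 and 7597 in the jejunum pools (log2 difference -8.83, SE 0.57, adjusted p = 4.87e-08). Its second probe set did not separate the segments (log2 difference -0.47, not called). Apoa4, an apolipoprotein made during fat absorption, read 31.3, 23.9 and 79 in the colon pools, against 25925, 17069.6 and 20717 in the jejunum pools (log2 difference -8.54, SE 0.40, adjusted p = 1.38e-09), and Tm4sf5, a tetraspan membrane protein of epithelia, read 5.9, 12.1 and 5.9 in the colon pools, against 5251, 7777 and 7641 in the jejunum pools (log2 difference -8.16, SE 0.20, adjusted p = 9.83e-13). Among other falls, Ace and Slc6a20a were called at smaller differences on another probe set (-4.87 and -3.79), and Dnase1 and Exoc3l4 were not called on theirs (-0.12 and -0.60). All 40 genes of the largest rises and falls were also called with the 18S block, as is likely for genes chosen by the size of their difference. They kept their direction among the 8 pools of high 18S signal.

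**Figure D2:**
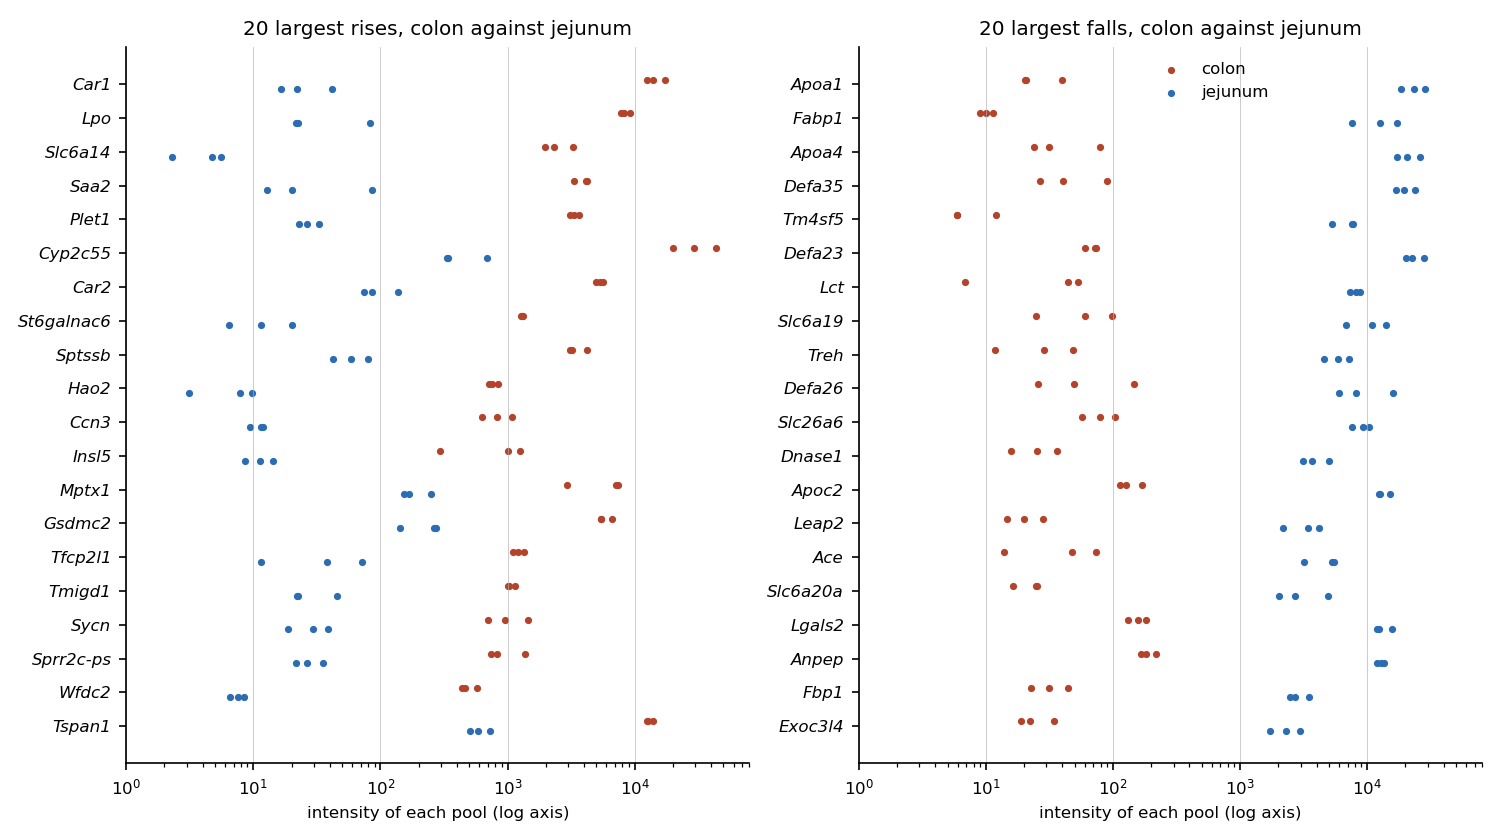
Intensity of each pool on a log axis for the 20 genes with the largest rises (left) and the 20 with the largest falls (right), colon pools in red and jejunum pools in blue. In each of the 40 genes the 3 colon pools and the 3 jejunum pools do not overlap, which the rule for naming required.

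The promoters of these genes were searched for motifs of factors that are known to set intestinal identity, since the genes moved together between segments. The windows ran from 250 bases before to 50 bases after the start of the gene in RefSeq (build GRCm38.p6), and 15 of the 20 rises and 18 of the 20 falls had a window in the table. The letters searched, on both strands, were GTTAAT for HNF1 factors, TGATAA for factors of the Gata family, TTTATNG for CDX factors and TCGTAAA for posterior HOX factors. None of these motifs contains another, though neighbouring matches may share end letters. A gene counted when any of its windows held the letters. GTTAAT was found in 27.8% of the falls, 13.3% of the rises and 8.24% of all 27025 genes of the table, and TGATAA in 33.3%, 6.67% and 10.4%. TTTATNG was found in 27.8% of the falls, 13.3% of the rises and 12.5% of all genes, and TCGTAAA in none of either group and in 0.681% of all genes. These shares are descriptions of letters in windows and were not tested. The match of TTTATNG read CTATAAA in Defa35, Defa23 and Tfcp2l1, letters that need not mark a site of CDX factors. More than 1 of the motifs stood in a window of 6 falls and of 1 rise, Hao2. Printed with the motif letters in capitals are Hao2 and a choice of 3 of these falls, all with GTTAAT. The window of Fabp1 lies at chr6:71199629-71199928 on the plus strand, that of Apoc2 at chr7:19677892-19678191 on the minus strand, that of Lgals2 at chr15:78855480-78855779 on the minus strand and that of Hao2 at chr3:98893181-98893480 on the minus strand.
Fabp1: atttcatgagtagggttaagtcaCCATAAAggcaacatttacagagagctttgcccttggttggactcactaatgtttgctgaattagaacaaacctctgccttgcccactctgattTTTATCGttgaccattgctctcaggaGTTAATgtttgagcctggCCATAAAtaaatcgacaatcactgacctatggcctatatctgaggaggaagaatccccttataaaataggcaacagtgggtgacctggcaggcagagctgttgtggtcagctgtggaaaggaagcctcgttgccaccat
Apoc2: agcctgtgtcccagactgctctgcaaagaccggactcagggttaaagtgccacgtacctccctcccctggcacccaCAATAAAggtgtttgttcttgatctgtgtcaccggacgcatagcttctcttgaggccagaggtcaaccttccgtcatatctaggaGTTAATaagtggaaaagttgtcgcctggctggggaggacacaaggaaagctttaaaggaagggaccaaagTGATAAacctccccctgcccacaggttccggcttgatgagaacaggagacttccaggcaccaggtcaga
Lgals2: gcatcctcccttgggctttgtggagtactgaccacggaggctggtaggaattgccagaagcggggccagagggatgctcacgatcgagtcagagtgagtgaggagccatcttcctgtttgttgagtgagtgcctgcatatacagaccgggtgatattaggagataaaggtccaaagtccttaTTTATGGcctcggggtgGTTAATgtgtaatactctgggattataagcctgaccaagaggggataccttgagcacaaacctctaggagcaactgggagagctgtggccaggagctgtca
Hao2: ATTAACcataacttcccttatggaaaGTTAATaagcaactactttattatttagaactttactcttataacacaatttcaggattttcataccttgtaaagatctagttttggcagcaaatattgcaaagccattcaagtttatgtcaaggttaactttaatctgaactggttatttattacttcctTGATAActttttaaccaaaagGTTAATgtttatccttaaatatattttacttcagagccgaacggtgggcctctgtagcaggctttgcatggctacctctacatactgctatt
Fabp1, Apoc2 and Lgals2 fell in the colon and Hao2 rose, so the letters GTTAAT stood in windows of genes of both directions.

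Most genes of fat absorption were lower in the colon. Of 24 measured genes for uptake, re-esterification and chylomicron assembly, 18 fell and 1 rose, with a median log2 difference of -3.27 (18 and 1 with the 18S block, 20 and 0 in the 8 pools of high 18S signal). Mttp, the transfer protein that loads lipid onto apolipoprotein B, read 1.1, 1.8 and 1.3 in the colon pools, against 627, 639 and 412 in the jejunum pools (log2 difference -5.02, SE 0.25, adjusted p = 2.85e-09). All 3 colon pools were far below the array median. Abcg5 and Abcg8, the paired subunits of the pump that returns plant sterols to the lumen, fell, with log2 differences of -5.27 and -4.91. Creb3l3, a membrane-bound transcription factor of lipid genes, read 343, 542 and 454 in the colon pools, against 12191, 17889 and 12566 in the jejunum pools (log2 difference -4.94, SE 0.24, adjusted p = 7.9e-10), so it was clearly above the array median in the colon too. Acsl5, an acyl-CoA synthetase, fell by 3.60 on the log2 scale and Apoc2, the activator of lipoprotein lipase, fell by 6.47. Not every gene of lipid handling moved. Plin2, a coat protein of lipid droplets, Sar1b, needed for chylomicron exit from the endoplasmic reticulum, and Scarb1, a lipoprotein receptor, had differences of -0.50, -0.88 and -0.33 (adjusted p = 0.14, 0.15 and 0.519), although Plin2 and Sar1b were called lower with arrays centred (-0.82 and -1.20). Fabp2, the intestinal-type fatty acid binding protein, read 1512, 1671 and 1805 in the colon pools, against 4032, 3839 and 2021 in the jejunum pools, a small fall (log2 difference -0.92, SE 0.23, adjusted p = 0.017) that was lost under quantile normalization (-0.65) and without colon pool 1 or 2 or jejunum pool 1 or 2 (-0.93 to -0.74).

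Retinol genes gave 3 falls and no rise among 9 (2 and 0 in either fit for 18S). Rbp2, the cellular retinol carrier of enterocytes, read 109, 79.9 and 78.2 in the colon pools, against 5500.4, 5453 and 6019.5 in the jejunum pools (log2 difference -5.76, SE 0.20, adjusted p = 4.92e-11), with both groups tight and far apart. Rdh7, a retinol dehydrogenase, fell by 4.69 on the log2 scale. Aldh1a1, which makes retinoic acid from retinal, read 3423, 4513 and 5073 in the colon pools, against 4542, 4127 and 3483 in the jejunum pools, and the segments overlapped (adjusted p = 0.916).

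Sugar uptake and sugar metabolism gave 8 falls and 1 rise among 11 genes, with a median of -2.89 (8 and 1 with the 18S block, 7 and 1 in the high-18S pools). Slc2a2, the basolateral glucose and fructose carrier, read 20.8, 27.7 and 11.1 in the colon pools, against 1448, 2142 and 1204 in the jejunum pools (log2 difference -5.48, SE 0.25, adjusted p = 1.23e-09). Slc5a1, the sodium-coupled glucose carrier of the brush border, read 395, 448 and 505 in the colon pools, against 5328, 5753 and 4397 in the jejunum pools (log2 difference -3.47, SE 0.17, adjusted p = 1.93e-09). The colon pools of Slc5a1 were above the array median, whereas those of Slc2a2 were not. Slc2a5, the fructose carrier, had a difference of -3.48 on its brightest probe set and -0.41, not called, on the middle of its 3. Fbp1, fructose bisphosphatase of gluconeogenesis, fell by 5.91 on the log2 scale, and Slc37a4, the glucose-6-phosphate carrier, fell by 2.89. Pck1, phosphoenolpyruvate carboxykinase, read 449.7, 410.1 and 479.7 in the colon pools, against 1375, 1090.0 and 931 in the jejunum pools (log2 difference -1.30, SE 0.19, adjusted p = 0.000291).

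Brush-border disaccharidases and phosphatases gave 5 falls and no rise among 8 genes, with a median of -3.14 (6 and 0 in both fits for 18S). Lct, lactase, read 6.8, 53.3 and 44.4 in the colon pools, against 7377, 8757 and 8140.3 in the jejunum pools (log2 difference -7.47, SE 0.34, adjusted p = 1.12e-09). Treh, trehalase, read 48.1, 11.9 and 28.8 in the colon pools, against 4546, 7223 and 5896 in the jejunum pools (log2 difference -7.07, SE 0.29, adjusted p = 1.49e-10). Both enzymes were dim in all colon pools. Alpi, intestinal alkaline phosphatase, kept a signal of 1707, 2178 and 2319.6 in the colon pools, against 18095, 21197 and 16570.1 in the jejunum pools (log2 difference -3.17, SE 0.20, adjusted p = 2.13e-08). Mgam, maltase-glucoamylase, fell by 3.11 on the log2 scale and Enpp3, an ectonucleotide phosphodiesterase, fell by 4.49.

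Peptidases of the brush border and of peptide breakdown gave 7 falls and no rise among 12 genes, with a median of -2.25 (7 and 0 in both fits for 18S). Ace, angiotensin-converting enzyme, read 47.2, 74.1 and 14 in the colon pools, against 3166, 5446 and 5279 in the jejunum pools (log2 difference -6.35, SE 0.33, adjusted p = 3.6e-09). Anpep, aminopeptidase N, read 183, 217 and 166 in the colon pools, against 12023, 12816 and 13463 in the jejunum pools (log2 difference -5.97, SE 0.17, adjusted p = 6.27e-12), and its jejunum pools were within a narrow range. Pepd and Cndp2, the cytosolic peptidases that finish the digestion of dipeptides, fell, with log2 differences of -3.48 and -2.55. Dpp4, dipeptidyl peptidase IV, had a difference of -0.23 that was not called (adjusted p = 0.775). Mep1a, the alpha subunit of meprin, read 328, 349.6 and 261 in the colon pools, against 144, 254 and 230.4 in the jejunum pools without a call (adjusted p = 0.181), while Mep1b, the beta subunit, read 599, 715 and 723 in the colon pools, against 2722, 3416 and 2025 in the jejunum pools (log2 difference -1.95, SE 0.20, adjusted p = 7.51e-06). A second probe set of Mep1b gave -0.74 and was not called.

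Amino acid carriers split by direction. Of 18 genes, 9 fell and 3 rose, with a median of -0.65 (9 and 3 with the 18S block, 9 and 2 in the high-18S pools). Slc6a19, the main sodium-coupled neutral amino acid carrier of the brush border, read 60, 24.7 and 98.4 in the colon pools, against 6772, 13952 and 10919 in the jejunum pools (log2 difference -7.16, SE 0.33, adjusted p = 4.71e-10). Slc6a20a, a carrier of proline-like amino acids, read 16.5, 25 and 25.1 in the colon pools, against 2710.2, 4910.1 and 2022 in the jejunum pools (log2 difference -6.31, SE 0.30, adjusted p = 8.51e-10). The basolateral carriers Slc7a7 and Slc7a8 had differences of -4.48 and -5.09, and Slc7a9, the cystine carrier of the brush border, one of -3.71. Slc6a14, described above, was the largest rise of the list. Slc7a5 and Slc6a6, a carrier of large neutral amino acids and the taurine carrier, read 273 ± 15.6 and 676 ± 107 in colon, against 328 ± 64.5 and 585 ± 159 in jejunum (SD, n = 3), and were not called (adjusted p = 0.636 and 0.637).

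Vitamin carriers gave 6 falls and no rise among 14 genes, with a median of -0.52 (6 and 0 with the 18S block, 4 and 0 in the high-18S pools). Slc46a1, the proton-coupled folate carrier, read 53.2, 15.3 and 51.1 in the colon pools, against 1406, 3259.7 and 2755 in the jejunum pools (log2 difference -5.48, SE 0.32, adjusted p = 2.06e-08). Amn, the membrane anchor of the receptor for vitamin B12 with intrinsic factor, read 1565, 1559.9 and 1577 in the colon pools, against 7095, 15599.9 and 11994 in the jejunum pools (log2 difference -2.80, SE 0.24, adjusted p = 7.34e-07), and Tcn2, which carries the vitamin in blood, read 545, 573 and 719 in the colon pools, against 2811, 4054 and 3605 in the jejunum pools (log2 difference -2.47, SE 0.16, adjusted p = 6.9e-08). A middle one of the 4 probe sets of Tcn2 gave -1.26 and was not called. Jejunum pool 1 was the lowest of its group in these 3 genes and still above every colon pool. Among 9 bile acid genes 2 rose and 1 fell (1 and 1 with the 18S block, 1 and 0 in the high-18S pools, 0 and 1 with arrays centred). Among 18 genes of iron, zinc and copper 1 rose and 1 fell (1 and 1, then 1 and 2, and 1 and 3 with arrays centred), a share below that of all genes, and among 7 of calcium and vitamin D 1 rose and 1 fell (2 and 1, then 1 and 1). Slc40a1, ferroportin, which exports iron from cells, read 1568, 1730.4 and 3095 in the colon pools, against 208, 193 and 104 in the jejunum pools (log2 difference 3.53, SE 0.32, adjusted p = 1.42e-06). Slc39a5, a zinc carrier of the basolateral membrane, read 1681, 1862 and 1778 in the colon pools, against 5466, 7475 and 8675 in the jejunum pools (log2 difference -1.99, SE 0.18, adjusted p = 1.86e-06).

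**Figure D3:**
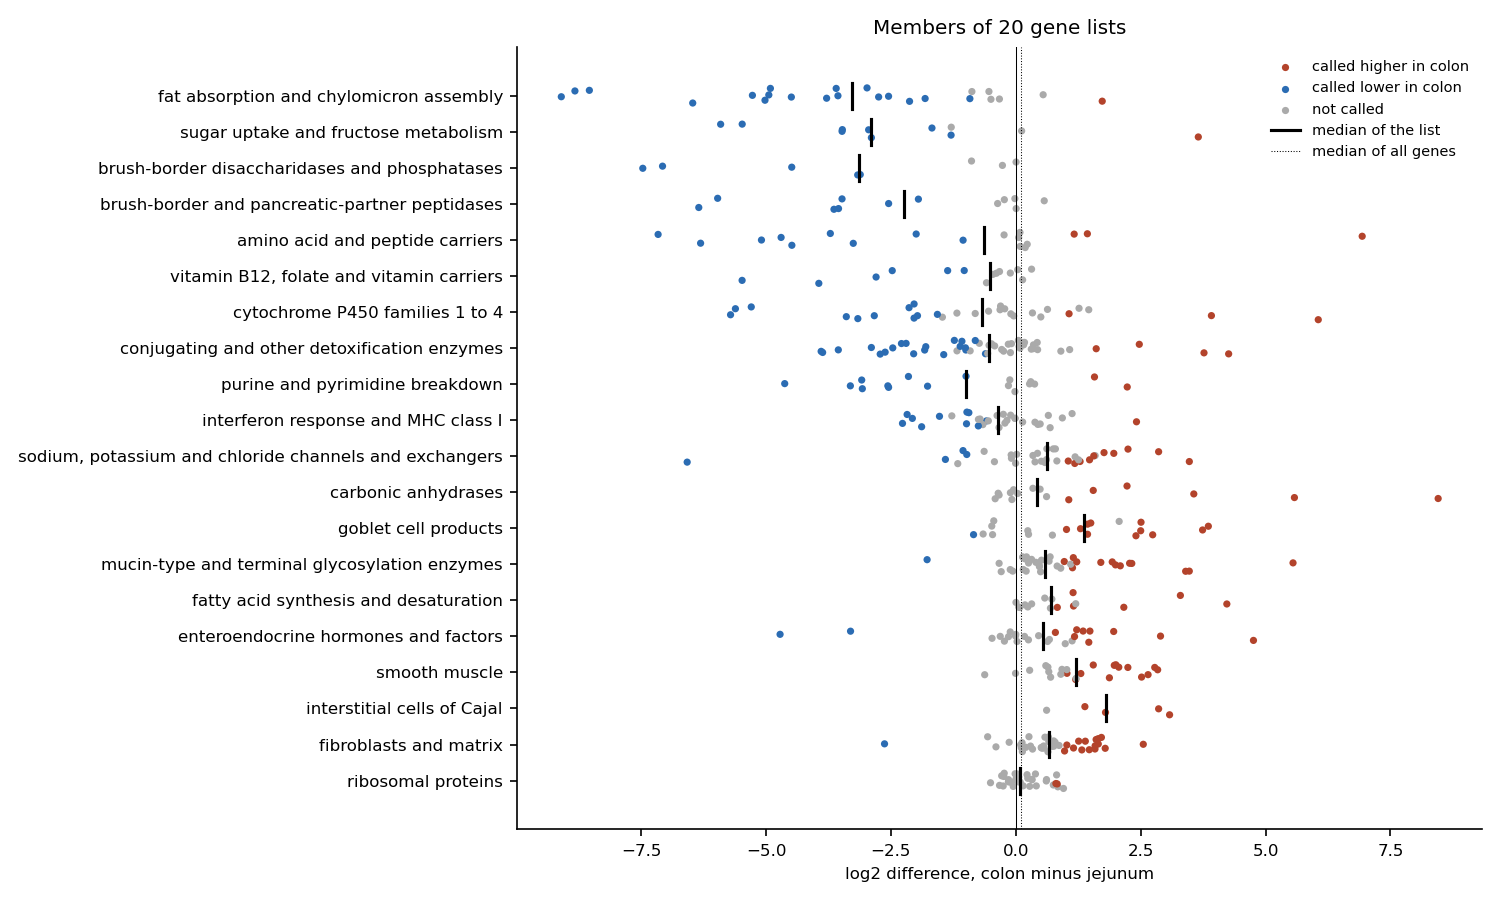
Log2 difference, colon minus jejunum, of every measured member of 20 gene lists. Red and blue points were called higher and lower in the colon, grey points were not called, thick bars mark the median of each list and the dotted line the median of all genes (0.10). The top 6 lists, of fat, sugar, disaccharidases, peptidases, amino acids and vitamins, have medians between -3.27 and -0.52 (the lists of retinol, iron, calcium and bile acid are not drawn), and goblet cell, smooth muscle and interstitial cell genes have medians of 1.37, 1.20 and 1.80.

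Among enzymes of drug and lipid oxidation more genes fell than rose. Of 28 cytochrome P450 genes, 11 fell and 3 rose, with a median of -0.68 (11 and 2 in both fits for 18S). Probe sets of this family can bind transcripts of relatives. Cyp2b10, which is induced by drugs through the receptor CAR, read 69.6, 114 and 79.5 in the colon pools, against 5031, 4854 and 6211 in the jejunum pools (log2 difference -5.71, SE 0.23, adjusted p = 2.73e-10). Cyp3a11, a main drug-oxidising enzyme, read 45.8, 27.8 and 64.4 in the colon pools, against 3746, 2488 and 1385 in the jejunum pools (log2 difference -5.30, SE 0.32, adjusted p = 2.81e-08). Cyp4v3 and Cyp4f14, which hydroxylate fatty acids, fell, with log2 differences of -5.61 and -3.16. Cyp2d10 went the other way and read 371, 305 and 269 in the colon pools, against 4.1, 4.2 and 9.4 in the jejunum pools (log2 difference 3.92, SE 0.29, adjusted p = 2.87e-07), beside Cyp2c55 described above. Among 49 conjugating and other detoxification enzymes 20 fell and 4 rose, with a median of -0.54 (16 and 5 with the 18S block, 15 and 5 in the high-18S pools). Ephx2, soluble epoxide hydrolase, read 187, 98.3 and 127 in the colon pools, against 1638, 2756 and 2385 in the jejunum pools (log2 difference -3.90, SE 0.22, adjusted p = 1.56e-08). Gstm6 and Gstt1, glutathione transferases, fell, with log2 differences of -3.87 and -2.20, Adh4, an alcohol dehydrogenase, fell by 3.55 and Maob, monoamine oxidase B, fell by 2.89. Maoa, the other monoamine oxidase, and Mgst3, a microsomal glutathione transferase, did not pass the test (-0.09 and -0.28, adjusted p = 0.87 and 0.455). Among 24 ABC transporters 5 fell and 3 rose (4 and 3 with the 18S block, 2 and 2 in the high-18S pools). Abcb1a, the drug efflux pump P-glycoprotein, read 909, 1015 and 1572 in the colon pools, against 151, 275 and 309.8 in the jejunum pools (log2 difference 2.19, SE 0.45, adjusted p = 0.00514), with every colon pool above every jejunum pool. Abcc3, a basolateral exporter of conjugates, read 2674, 3197 and 2996 in the colon pools, against 863, 1712 and 1567 in the jejunum pools, and its rise (log2 difference 1.15, SE 0.21, adjusted p = 0.00198) was lost when arrays were centred on the median (0.82).

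Enzymes of purine and pyrimidine breakdown gave 9 falls and 2 rises among 17 genes (8 and 2 with the 18S block, 8 and 1 in the high-18S pools). Ada, adenosine deaminase, read 29, 494 and 188 in the colon pools, against 2799, 3718 and 6702 in the jejunum pools, with a wide spread in the colon pools (log2 difference -4.63, SE 0.60, adjusted p = 9.68e-05). Xdh, xanthine oxidoreductase, read 168, 205 and 185 in the colon pools, against 1688, 1777 and 1612 in the jejunum pools (log2 difference -3.09, SE 0.19, adjusted p = 2.5e-08), tight in both segments. Cda, cytidine deaminase, and Pnp, purine nucleoside phosphorylase, fell, with log2 differences of -3.07 and -2.56. Of 20 genes of the urea cycle and of arginine and glutamine metabolism 7 fell and 1 rose (7 and 1 with the 18S block, 4 and 0 in the high-18S pools). These counts depended on the probe set. With the upper middle probe set of each gene 2 fell and 2 rose, and the median moved from -0.27 to 0.12. With the lower middle one 8 fell and 1 rose. Cps1, which makes carbamoyl phosphate in mitochondria, read 89.1, 99.8 and 48.3 in the colon pools, against 3336, 2660.4 and 2051 in the jejunum pools (log2 difference -4.84, SE 0.21, adjusted p = 7.9e-10). Arg2, mitochondrial arginase, read 208, 161 and 149 in the colon pools, against 5432, 7776 and 7107 in the jejunum pools (log2 difference -5.16, SE 0.21, adjusted p = 3.29e-10), and its second probe set gave 0.46 without a call. Odc1 and Asns, ornithine decarboxylase and asparagine synthetase, had differences of 0.09 and 0.09 (adjusted p = 0.845 and 0.901).

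Genes of salt and water transport moved in both directions. Of 34 channels and exchangers for sodium, potassium and chloride 10 rose and 4 fell, with a median of 0.62 (8 and 3 with the 18S block, 9 and 2 in the high-18S pools). Slc26a6, an anion exchanger of the small intestinal brush border, read 79.3, 104 and 56.8 in the colon pools, against 7546, 10307 and 9277 in the jejunum pools (log2 difference -6.58, SE 0.21, adjusted p = 8.54e-12). Hsd11b2, which inactivates glucocorticoids and so leaves the mineralocorticoid receptor to aldosterone, read 519, 402 and 515 in the colon pools, against 19.9, 47.2 and 22.2 in the jejunum pools (log2 difference 3.47, SE 0.41, adjusted p = 3.6e-05). Its second probe set gave 0.57 and was not called. Atp1b3 and Kcnk1, a subunit of the sodium pump and a potassium channel, rose by 1.18 and 1.77 on the log2 scale. Scnn1b and Scnn1g, subunits of the aldosterone-regulated sodium channel, read 84.7 ± 35.2 and 127 ± 83.2 in colon, against 47.8 ± 13.3 and 55.5 ± 14.1 in jejunum (SD, n = 3), without a call (adjusted p = 0.47 and 0.5). Slc9a3r1, the scaffold protein of the brush-border sodium exchanger, fell to 2742, 3767 and 3389 in the colon pools, against 7479, 8685 and 10198 in the jejunum pools (log2 difference -1.41, SE 0.20, adjusted p = 0.000187).

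Among 10 aquaporins 2 rose and 4 fell (2 and 2 in both fits for 18S and without colon pool 2). Aqp8, a channel of colonic surface cells, read 1059, 1121 and 578 in the colon pools, against 98.9, 31.4 and 56.3 in the jejunum pools (log2 difference 3.62, SE 0.37, adjusted p = 8.29e-06). Aqp4 read 929, 751 and 548 in the colon pools, against 47.7, 19.2 and 18.8 in the jejunum pools (log2 difference 4.12, SE 0.31, adjusted p = 3.51e-07). Both were low in the jejunum pools, and every colon pool lay far above them. Aqp11, an intracellular channel, read 313, 209 and 294 in the colon pools, against 1751, 1921 and 2173 in the jejunum pools (log2 difference -2.78, SE 0.20, adjusted p = 9.67e-08). Aqp1, found in vessels, fell by 1.64 on the log2 scale, but its second probe set gave 0.54 without a call. Of 16 carbonic anhydrases 6 rose and none fell, with a median of 0.41 (6 and 0 with the 18S block, 5 and 0 in the high-18S pools). Car2 read 5007, 5300.5 and 5674 in the colon pools, against 136, 85.8 and 74 in the jejunum pools (log2 difference 5.58, SE 0.23, adjusted p = 3e-10), well above every jejunum pool, in the same direction as Car1. Car4, the membrane-anchored form, read 3677, 5450.0 and 3636 in the colon pools, against 1284, 2781 and 2221 in the jejunum pools, and its rise (log2 difference 1.06, SE 0.29, adjusted p = 0.0289) was lost with arrays centred (0.74) and without any 1 pool other than jejunum pool 2 (0.75 to 1.16). Guca2b, uroguanylin, the peptide that drives fluid secretion through guanylate cyclase C, read 580.3, 469 and 568 in the colon pools, against 10076, 13362 and 14346 in the jejunum pools (log2 difference -4.49, SE 0.18, adjusted p = 2.13e-10). Its receptor Gucy2c read 1387, 1661 and 1974 in the colon pools, against 1460.5, 2117 and 1604 in the jejunum pools, with overlapping segments (adjusted p = 0.95).

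Among 10 carriers and receptors of short-chain fatty acids 2 rose and 2 fell (2 and 2 with the 18S block, 2 and 1 in the high-18S pools). Slc5a8, the high-affinity sodium-coupled carrier of butyrate and lactate, read 257, 254 and 236 in the colon pools, against 8.4, 11 and 9.7 in the jejunum pools (log2 difference 3.37, SE 0.45, adjusted p = 0.000114). Slc5a12, its low-affinity relative, read 50.1, 10.4 and 6 in the colon pools, against 716, 909.9 and 490.4 in the jejunum pools (log2 difference -4.38, SE 0.51, adjusted p = 2.53e-05). The pair thus moved in opposite directions, with no overlap in either gene. Ffar2, a receptor of short-chain fatty acids, read 687, 875 and 747 in the colon pools, against 321, 336 and 351 in the jejunum pools (log2 difference 1.15, SE 0.19, adjusted p = 0.000918), and Bsg, the chaperone of monocarboxylate carriers, read 4172, 4578 and 4194 in the colon pools, against 4640.4, 5022 and 4530.5 in the jejunum pools without a call (adjusted p = 0.738).

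Of 20 measured goblet cell products 11 rose and 1 fell, with a median of 1.37 (8 and 1 in both fits for 18S, 9 and 3 with arrays centred, 7 and 1 without colon pool 2). Muc2, the gel-forming mucin, read 19972, 27637 and 18511 in the colon pools, against 2710.5, 4682 and 4343 in the jejunum pools (log2 difference 2.51, SE 0.24, adjusted p = 2.98e-06). Retnlb, a secreted antibacterial protein of goblet cells, read 19439.6, 29517 and 20417 in the colon pools, against 1422, 1893 and 1399 in the jejunum pools (log2 difference 3.85, SE 0.19, adjusted p = 1.93e-09). Klk1, tissue kallikrein, read 7009, 7104 and 7838 in the colon pools, against 464, 554 and 587 in the jejunum pools (log2 difference 3.74, SE 0.22, adjusted p = 1.85e-08), and its probe sets can bind relatives. Agr2, a disulfide isomerase needed for mucin folding, and Spdef and Creb3l1, transcription factors of the secretory programme, rose by 2.40, 1.44 and 1.44 on the log2 scale. Other goblet cell products did not pass the test. Zg16, Fcgbp and Clca1, which are secreted into the mucus layer, had differences of -0.48, -0.65 and 0.73 (adjusted p = 0.0991, 0.117 and 0.0606), and all were bright in both segments. Zg16 and Fcgbp were called lower with arrays centred (-0.81 and -0.98), and Clca1 higher under quantile normalization (1.02).

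Enzymes that build and finish mucin sugars rose in part. Of 36, 13 rose and 1 fell, with a median of 0.59 (9 and 1 with the 18S block, 8 and 1 in the high-18S pools). St6galnac6, a sialyltransferase, read 1326, 1307 and 1278 in the colon pools, against 11.6, 6.4 and 20.2 in the jejunum pools (log2 difference 5.55, SE 0.33, adjusted p = 2.13e-08). The colon pools agreed closely with each other and the jejunum pools were very dim. Gne, the first enzyme of sialic acid synthesis, read 1583, 1389 and 1395 in the colon pools, against 351, 349 and 358 in the jejunum pools (log2 difference 1.99, SE 0.15, adjusted p = 3.39e-07), and Slc35a1, the carrier of the sialic acid donor into the Golgi, read 498, 412 and 594 in the colon pools, against 45.9, 32 and 22.4 in the jejunum pools (log2 difference 3.40, SE 0.27, adjusted p = 5.2e-07). St6gal1, a second sialyltransferase, rose by 2.09 on the log2 scale. B4galnt2, which adds N-acetylgalactosamine to glycans, read 3062, 3244 and 3205 in the colon pools, against 1551, 1821 and 1008 in the jejunum pools (log2 difference 1.15, SE 0.19, adjusted p = 0.000994). B3gnt7 and Gcnt3, which extend and branch the chains, were not called (0.32 and 0.69, adjusted p = 0.553 and 0.38), although a second probe set of Gcnt3 was (3.37).

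Several Paneth cell products fell. Defa35, Defa23 and Defa26, alpha-defensins of Paneth cell granules, were among the 20 largest falls, and their sequences are alike enough that a probe set may read several of them. Defa23 read 73.6, 72.2 and 60.7 in the colon pools, against 28088, 20043 and 22324 in the jejunum pools (log2 difference -8.10, SE 0.17, adjusted p = 3.4e-13), and Defa35 read 26.9, 40.3 and 89.1 in the colon pools, against 23727, 16929 and 19554 in the jejunum pools (log2 difference -8.30, SE 0.28, adjusted p = 4.46e-11). The colon pools were near or below the array median, while the jejunum pools were among the brightest values of the array. Of 10 other measured genes listed for Paneth cells and antimicrobial defence 4 fell and none rose (4 and 0 in both fits for 18S), 1 of them Guca2b, described above. Mmp7, matrilysin, which activates the defensins, read 18.9, 11.4 and 36.1 in the colon pools, against 653, 799 and 536 in the jejunum pools (log2 difference -4.19, SE 0.24, adjusted p = 1.76e-08). Lyz1, the Paneth cell lysozyme, kept 704, 840.3 and 1068 in the colon pools, against 6588, 8963 and 7495 in the jejunum pools (log2 difference -3.13, SE 0.28, adjusted p = 4.9e-06). Pla2g2a, a secreted phospholipase, kept 3258, 716 and 264 in the colon pools, against 15320.2, 6827 and 9735 in the jejunum pools (log2 difference -3.52, SE 0.60, adjusted p = 0.0012), and colon pool 1 was the highest of its group. A second probe set of Lyz1 gave 0.70 and was not called. Ang4 and Itln1, an angiogenin and intelectin made by secretory cells, overlapped between the segments (adjusted p = 0.789 and 0.371). Of 7 Reg lectins 3 fell (3 with the 18S block, 2 in the high-18S pools). Reg3a read 51.4, 52.9 and 47.8 in the colon pools, against 3936, 2898 and 2636 in the jejunum pools (log2 difference -5.55, SE 0.30, adjusted p = 6.26e-09) and Reg1 read 76.1, 137 and 110.5 in the colon pools, against 6357, 3169.8 and 1823 in the jejunum pools (log2 difference -4.78, SE 0.34, adjusted p = 1.75e-07), whereas Reg3b, bright throughout, read 14952, 18660.0 and 14716 in the colon pools, against 19136, 14137 and 11973 in the jejunum pools (adjusted p = 0.897).

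Hormones of enteroendocrine cells moved in both directions. Of 26 genes 9 rose and 2 fell, with a median of 0.55 (5 and 2 with the 18S block, 4 and 2 in the high-18S pools). With arrays centred 5 rose and 4 fell, and leaving out any 1 colon pool or jejunum pool 3 left 5 rises. Gip, the glucose-dependent insulinotropic peptide of upper K cells, read 21.4, 28.7 and 10.3 in the colon pools, against 836, 956 and 954 in the jejunum pools (log2 difference -4.72, SE 0.22, adjusted p = 1.23e-09). Cck, cholecystokinin, read 46.7, 72.9 and 19.4 in the colon pools, against 605, 504 and 578 in the jejunum pools (log2 difference -3.31, SE 0.28, adjusted p = 1.38e-06). Insl5, a peptide of distal L cells, read 1264, 1003 and 293 in the colon pools, against 14.3, 8.6 and 11.3 in the jejunum pools (log2 difference 4.76, SE 0.49, adjusted p = 6.83e-06), with colon pool 3 well below the other colon pools. Pyy, the other L cell peptide, read 2675, 2279 and 1653 in the colon pools, against 70.2, 352 and 771 in the jejunum pools (log2 difference 2.90, SE 0.54, adjusted p = 0.00221), and its jejunum pools were widely spread. Sct and Sst, secretin and somatostatin, were not called (-0.48 and -0.31, adjusted p = 0.0726 and 0.275) but were called lower with arrays centred (-0.80 and -0.64). Among 19 tuft and stem cell markers 2 rose and 1 fell (3 and 1 with the 18S block, 2 and 1 in the high-18S pools). Olfm4, a marker of small intestinal stem cells, read 39.8, 15.1 and 72.2 in the colon pools, against 1784, 1443 and 1124 in the jejunum pools (log2 difference -4.75, SE 0.33, adjusted p = 7.72e-08). Prom1, prominin-1 of progenitor membranes, read 1760.0, 1929.5 and 1903 in the colon pools, against 122, 113 and 104 in the jejunum pools (log2 difference 3.87, SE 0.17, adjusted p = 7.9e-10). Rnf43, a Wnt feedback gene of stem cells, was not called (0.06, adjusted p = 0.955).

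Structural genes of the epithelium changed in both directions, 8 higher and 8 lower of 29 (8 and 6 with the 18S block, 6 and 6 in the high-18S pools). Ceacam1, an adhesion protein of the apical surface, read 8333, 10365 and 8670.3 in the colon pools, against 1346, 1232 and 1015 in the jejunum pools (log2 difference 2.92, SE 0.16, adjusted p = 1.19e-08). Mal, a raft protein of apical sorting, read 334, 427 and 405 in the colon pools, against 28.7, 10.9 and 32.5 in the jejunum pools (log2 difference 3.38, SE 0.38, adjusted p = 2.51e-05). Vil1, villin, the actin bundler of microvilli, read 1843, 1926 and 2159 in the colon pools, against 5009, 6384 and 6003 in the jejunum pools (log2 difference -1.54, SE 0.15, adjusted p = 4.62e-06). Lgals2, a galectin, fell by 6.27 on the log2 scale. The general epithelial genes Krt8, Krt19 and Lgals4, 2 keratins and a galectin, did not pass the test and were bright in both segments, with differences of 0.24, 0.19 and 0.25, though Krt8 and Lgals4 were called higher under quantile normalization (0.46 and 0.50). Of 20 claudins and other tight junction genes 2 rose and 3 fell (2 and 2 in both fits for 18S). Cldn15, which forms a pore for sodium, read 2184, 2105 and 2256 in the colon pools, against 7026, 10099 and 9160.3 in the jejunum pools (log2 difference -1.98, SE 0.18, adjusted p = 1.51e-06), and Cldn4, a sealing claudin, fell by 1.66 on the log2 scale. Cldn23 read 1654, 1339 and 1186 in the colon pools, against 308, 756 and 456 in the jejunum pools (log2 difference 1.51, SE 0.34, adjusted p = 0.00896), and Cldn3, bright in both segments, had a difference of 0.00.

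Hox genes encode position along the body axis, with higher paralogue numbers expressed further back. Of 13 measured posterior Hox genes (paralogues 9 to 13) 7 rose and none fell, with a median of 1.00, but 2 were called with the 18S block, 1 in the high-18S pools and 4 with arrays centred on the median, in which setting 1 was called lower. Leaving out colon pool 1, colon pool 3 or jejunum pool 3 left 3 rises and leaving out jejunum pool 2 left 4. Of the 13 genes 8 had means below the array median in both segments. Of 20 genes of paralogues 1 to 8, 3 rose and none fell (3 and 0 in both fits for 18S, 2 and 0 with arrays centred). Hoxa7 read 270.0, 179.6 and 205 in the colon pools, against 17.2, 9.4 and 17.1 in the jejunum pools (log2 difference 2.93, SE 0.29, adjusted p = 6e-06). Hoxb6 read 246, 338 and 390.3 in the colon pools, against 110.3, 82.4 and 108 in the jejunum pools (log2 difference 1.54, SE 0.26, adjusted p = 0.000973), with the segments apart. Hoxb9 read 81.1, 78.5 and 96.4 in the colon pools, against 17, 5.5 and 7.3 in the jejunum pools, and its rise (log2 difference 1.99, SE 0.29, adjusted p = 0.000313) was not called in the high-18S pools (1.61). Hoxb13, the terminal gene of its cluster, read 553, 366 and 139 in the colon pools, against 87.1, 49.9 and 75.5 in the jejunum pools (log2 difference 1.92, SE 0.42, adjusted p = 0.00792). Colon pool 3 was the lowest of its group, and the call was lost in both fits for 18S (1.60 and 1.65) and without colon pool 1 (1.51). Hoxa9 was not called on its brightest probe set but was on another (3.15). Hoxa11 read 50.5, 63 and 63.6 in the colon pools, against 8.1, 4 and 6.9 in the jejunum pools, below the array median in every colon pool.

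**Figure D4:**
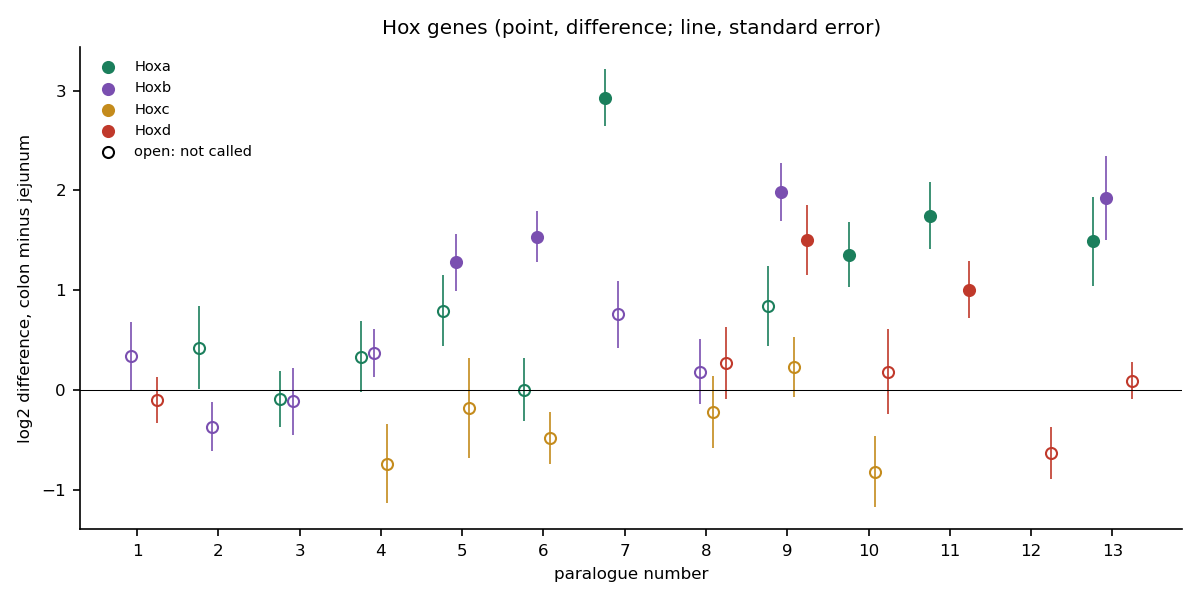
Log2 difference, colon minus jejunum, of each measured Hox gene by paralogue number, with its standard error as a line and the cluster as the colour. Filled points were called, and open points were not. On the brightest probe set of each gene, Hoxa7 has the largest difference (2.93), and members of the Hoxa, Hoxb and Hoxd clusters from paralogue 9 on were called at differences between 1.00 and 1.99.

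Of 41 regional and epithelial transcription factors 14 rose and 5 fell, with a median of 0.68 (12 and 3 with the 18S block, 10 and 2 in the high-18S pools, 9 and 7 with arrays centred). Leaving out colon pool 1 or 3 or jejunum pool 1 or 2 left 2 or 3 falls. Gata5 and Gata4, factors of small intestinal identity, fell. Gata5 read 10.9, 9.5 and 8.9 in the colon pools, against 188, 293 and 369 in the jejunum pools (log2 difference -3.49, SE 0.25, adjusted p = 2.06e-07), and Gata4 read 30.3, 111 and 41.5 in the colon pools, against 281, 167 and 167 in the jejunum pools (log2 difference -1.63, SE 0.35, adjusted p = 0.00764), with colon pool 2 the nearest to the jejunum pools. Cdx1, a caudal-type factor of the intestinal epithelium, read 983, 897 and 1111 in the colon pools, against 369, 393 and 406 in the jejunum pools (log2 difference 1.32, SE 0.16, adjusted p = 5.5e-05). Foxa1, a forkhead factor of secretory cells, read 411, 388 and 526 in the colon pools, against 50.9, 67.4 and 27.4 in the jejunum pools (log2 difference 2.86, SE 0.29, adjusted p = 8.07e-06). Hes1, a target of Notch signalling, rose by 1.14 on the log2 scale, and Elf3, an epithelial factor, was not called (0.11). Of 30 nuclear receptors and partners 3 rose and 5 fell (2 and 4 with the 18S block, 1 and 3 in the high-18S pools, 2 and 8 with arrays centred), and 3 fell without any 1 colon pool or jejunum pool 3. Pparg, a receptor of fatty acids, read 228, 233 and 352 in the colon pools, against 29.5, 63.5 and 17.8 in the jejunum pools (log2 difference 2.50, SE 0.33, adjusted p = 0.000104), and Nr1h3, an oxysterol receptor, read 156, 186 and 138 in the colon pools, against 552, 833 and 1062 in the jejunum pools (log2 difference -2.20, SE 0.21, adjusted p = 4.75e-06). Of 38 genes of Wnt, hedgehog and BMP signalling 2 rose and none fell (2 and 0 with the 18S block), and neither was called in the high-18S pools.

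Genes of lipid synthesis rose in part, and those of lipid breakdown moved both ways. Of 16 genes of fatty acid synthesis and desaturation 6 rose and none fell, with a median of 0.71 (6 and 0 with the 18S block, 4 and 0 in the high-18S pools). Scd1 and Scd2 are desaturases that make oleic acid. Scd1 read 1159, 968 and 1186 in the colon pools, against 123, 72.3 and 104 in the jejunum pools (log2 difference 3.29, SE 0.25, adjusted p = 3.51e-07). Scd2 read 1438, 2034 and 3226 in the colon pools, against 61.5, 89 and 166 in the jejunum pools (log2 difference 4.22, SE 0.48, adjusted p = 2.85e-05). Neither gene overlapped between the segments. Elovl5, an elongase, read 643, 575 and 880.0 in the colon pools, against 202, 154 and 89 in the jejunum pools (log2 difference 2.16, SE 0.25, adjusted p = 4e-05). Fasn and Fads2, fatty acid synthase and a desaturase of polyunsaturated chains, were not called (0.32 and 0.24, adjusted p = 0.484 and 0.596). Of 26 genes of fatty acid oxidation and ketone synthesis 5 rose and 6 fell (2 and 5 with the 18S block, 3 and 5 in the high-18S pools), with 3 rises left without any 1 colon pool or jejunum pool 3. Acaa2, the last enzyme of mitochondrial beta-oxidation, read 4283, 4749 and 4516 in the colon pools, against 11448, 10612 and 9792 in the jejunum pools (log2 difference -1.23, SE 0.14, adjusted p = 3.69e-05). Oxct1, which uses ketone bodies, read 499, 517 and 553 in the colon pools, against 110.4, 131 and 83.3 in the jejunum pools (log2 difference 2.14, SE 0.20, adjusted p = 3.32e-06), and its second probe set gave 0.77 without a call. Of 21 cholesterol genes 5 rose and 1 fell (4 and 1 in both fits for 18S), with 3 rises left without colon pool 2 or 3 or jejunum pool 3. Sqle and Hmgcs1, enzymes of the pathway, read 606 ± 115 and 465 ± 137 in colon, against 216 ± 15.3 and 120.1 ± 27.5 in jejunum (SD, n = 3; log2 differences 1.41 and 1.80). Srebf1, the factor that drives fatty acid synthesis, fell by 1.26 on the log2 scale, opposite to the synthetic enzymes.

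Of 54 respiratory chain subunits 8 fell and 2 rose, with a median of -0.22 (6 and 2 with the 18S block, 1 and 2 in the high-18S pools, 15 and 0 with arrays centred). Uqcrc1, a core subunit of complex III, read 2442, 2626 and 2516 in the colon pools, against 5682, 6621 and 8574 in the jejunum pools (log2 difference -1.43, SE 0.16, adjusted p = 1.78e-05), and its second probe set gave -0.67 without a call. Of 33 ribosomal proteins 2 rose and none fell (2 and 0 in both fits for 18S), and none of either direction was called with arrays centred. Rplp0 and Rps28 had differences of 0.01 and -0.01. Of 38 cell cycle genes 3 rose and 1 fell (1 and 1 with the 18S block, 1 and 0 in the high-18S pools, and 1 and 1 without colon pool 1 or 3 or jejunum pool 2 or 3), and Ccnb2, a cyclin of mitosis, was not called (0.01). Among 24 peroxidases and antioxidants 2 rose and 3 fell (1 and 2 in both fits for 18S). Gpx4, which reduces lipid peroxides, read 344, 324 and 414 in the colon pools, against 826, 1055 and 1169.8 in the jejunum pools (log2 difference -1.45, SE 0.19, adjusted p = 9.01e-05). Of 20 immediate early genes 5 rose and 1 fell (4 and 1 with the 18S block, 3 and 1 without colon pool 2), but 1 rose and none fell in the high-18S pools, and Fos, Jund and Ier2 were not called (-0.42, -0.11 and 0.04). Of 20 heat shock proteins 4 rose and none fell (2 and 0 with the 18S block, 1 and 0 in the high-18S pools, 2 and 0 without colon pool 1 or 3 or jejunum pool 2). With arrays centred 1 rose and 2 fell among the cell cycle genes, 0 and 4 among the peroxidases, 2 and 1 among the immediate early genes and 1 and 0 among the heat shock proteins.

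Several genes of antigen presentation and of T cells were lower in the colon. Of 12 MHC class II genes 5 fell and none rose (5 with the 18S block, 3 in the high-18S pools). H2-Ab1, a class II beta chain, read 541, 380.0 and 307 in the colon pools, against 1383, 1882 and 1743 in the jejunum pools (log2 difference -2.01, SE 0.21, adjusted p = 1.37e-05). H2-DMa, which loads class II molecules, read 386, 355 and 234 in the colon pools, against 838, 970.2 and 1200.4 in the jejunum pools (log2 difference -1.59, SE 0.20, adjusted p = 6.84e-05). Of 32 genes of the interferon response and MHC class I 10 fell and 1 rose, with a median of -0.36 (8 and 1 with the 18S block, 7 and 0 in the high-18S pools). Psmb9, a subunit of the immunoproteasome, read 193, 147 and 212 in the colon pools, against 1070.0, 922 and 835 in the jejunum pools (log2 difference -2.27, SE 0.21, adjusted p = 4.02e-06), and H2-D1, a class I heavy chain, read 5155, 5213 and 4496 in the colon pools, against 10358, 9527 and 9424 in the jejunum pools (log2 difference -0.98, SE 0.16, adjusted p = 0.000629). Class I probe sets can bind related class I genes. Irf8, a factor of the response, was not called (-0.18, adjusted p = 0.685).

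Among 32 chemokines and receptors 3 rose and 3 fell (2 and 3 with the 18S block, 1 and 3 in the high-18S pools). Ccl25, the chemokine that draws lymphocytes to the small intestine, read 59.2, 69 and 19.4 in the colon pools, against 2431, 2574 and 1301 in the jejunum pools (log2 difference -5.06, SE 0.30, adjusted p = 2.37e-08). Ccl5, made by activated T cells, read 104, 46.5 and 22.4 in the colon pools, against 969, 961 and 1040.1 in the jejunum pools (log2 difference -3.93, SE 0.32, adjusted p = 6.68e-07). Cx3cl1, a membrane-bound chemokine, fell by 1.74 on the log2 scale. Ccl28, which draws plasma cells to the colon, read 409, 374 and 442 in the colon pools, against 46.3, 26.8 and 39.3 in the jejunum pools (log2 difference 3.00, SE 0.53, adjusted p = 0.00137), a rise not called in the high-18S pools (2.76). Of 28 genes of T cells and intraepithelial lymphocytes 4 fell and none rose (4 and 0 in both fits for 18S, with 7 falls when arrays were centred). Cd7, of T and natural killer cells, read 141, 119 and 173 in the colon pools, against 682, 359.7 and 281 in the jejunum pools (log2 difference -1.43, SE 0.26, adjusted p = 0.00204), with every colon pool below every jejunum pool. The summed intensity of the list was 2581 to 2937 in the colon pools, against 4239 to 5002 in the jejunum pools. This sum includes Ccl5, given above, so it does not show a fall across the list. Of the 28 genes 24 were not called, and 18 had means below the array median in both segments. Of 22 genes of B and plasma cells 1 rose (1 in both fits for 18S), the signalling adaptor Blnk (log2 difference 1.52). Igha, the heavy chain of IgA, read 12711, 18994 and 9387 in the colon pools, against 25072, 16377 and 19084 in the jejunum pools. Pigr, the receptor that carries it across the epithelium, read 12201, 16680.4 and 11214 in the colon pools, against 14271, 8338 and 7607 in the jejunum pools, and both genes overlapped between segments (adjusted p = 0.293 and 0.345). Pigr was called higher under quantile normalization (0.73). Of 20 genes of macrophages and neutrophils 1 rose and 2 fell (1 and 1 with the 18S block, 0 and 1 in the high-18S pools), and C1qa, of resident macrophages, was not called (-0.29).

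Many genes of the muscle wall rose. Of 24 smooth muscle genes 13 rose and none fell, with a median of 1.20 (14 with the 18S block, 12 in the high-18S pools, 11 with arrays centred). Cnn1, calponin, read 3680.1, 3924 and 4476 in the colon pools, against 447, 635 and 576 in the jejunum pools (log2 difference 2.84, SE 0.16, adjusted p = 1.04e-08). Tagln, transgelin, read 4319, 5034 and 5299 in the colon pools, against 564, 893 and 664 in the jejunum pools (log2 difference 2.78, SE 0.17, adjusted p = 3.96e-08). Mylk, myosin light chain kinase, averaged 3699 ± 15.1 in colon and 1496 ± 142 in jejunum, and Synm, the intermediate filament protein synemin, 1589.6 ± 36.2 in colon and 395 ± 38.2 in jejunum (SD, n = 3 each). Every colon pool was above every jejunum pool in these 4 genes. Of 5 genes of interstitial cells of Cajal, the pacemaker cells of the wall, 4 rose and none fell (4 and 0 in both fits for 18S). Kit, their receptor tyrosine kinase, read 254, 241 and 290.1 in the colon pools, against 82.1, 69.7 and 44.3 in the jejunum pools (log2 difference 1.80, SE 0.25, adjusted p = 0.000228). Ano1, their chloride channel, read 862, 902 and 698 in the colon pools, against 108, 109 and 80.8 in the jejunum pools (log2 difference 2.86, SE 0.29, adjusted p = 5.26e-06). Thbs4, a thrombospondin of the matrix that was placed on this list, rose by 3.08 on the log2 scale.

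Of 29 genes of enteric neurons and glia 4 rose and 1 fell (2 and 1 in both fits for 18S, and also without colon pool 1 or 2 or jejunum pool 2 or 3). Penk, proenkephalin, read 417, 466 and 368 in the colon pools, against 110.3, 77.9 and 97.6 in the jejunum pools (log2 difference 1.96, SE 0.21, adjusted p = 1.63e-05), and the middle ones of its 4 probe sets gave 0.93 and 0.95 without a call. Npy, neuropeptide Y, fell to 83.8, 79.4 and 58.2 in the colon pools, against 231, 141 and 232 in the jejunum pools (log2 difference -1.26, SE 0.26, adjusted p = 0.00473). Uchl1 and Tubb3, general neuronal genes, were not called (0.27 and 0.08). Of 41 genes of fibroblasts and matrix 15 rose and 1 fell, with a median of 0.66 (14 and 1 with the 18S block, 8 and 1 in the high-18S pools). Postn, periostin, read 288, 227 and 301 in the colon pools, against 38.7, 27.2 and 33.1 in the jejunum pools (log2 difference 2.55, SE 0.29, adjusted p = 2.7e-05), and Dcn, decorin, read 1389, 1322 and 1128 in the colon pools, against 550.0, 505 and 517 in the jejunum pools (log2 difference 1.26, SE 0.15, adjusted p = 3.81e-05). Fbln1, fibulin-1, read 517, 592 and 567 in the colon pools, against 2685, 3703 and 4429.9 in the jejunum pools (log2 difference -2.63, SE 0.20, adjusted p = 3.44e-07) and was the only fall of the list. The fibrillar collagen Col1a2 overlapped between segments (0.11, adjusted p = 0.933), although a second probe set was called higher (1.20). Of 16 endothelial genes 1 was called lower in each fit for 18S, though not in the fit without that term.

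The summed intensity of the smooth muscle list was 40641 to 46701 in the colon pools, against 10245 to 13794 in the jejunum pools. That of the fibroblast and matrix list was 12285 to 14237, against 9332 to 12950, and that of the endothelial list 2600 to 2888, against 2510 to 4260. The smooth muscle sums separated the segments, whereas the ranges of the matrix and endothelial sums overlapped between them. The part of muscle and matrix in the differences of epithelial genes was not tested. Markers of tissue attached to the gut were measured as well. Of 12 adipocyte genes 6 rose and 3 fell (4 and 3 with the 18S block, 3 and 2 in the high-18S pools). Their summed intensities were 1682 to 2250 in colon and 2390 to 2764 in jejunum. These sums include Pck1, described above with the sugar genes and called lower in the colon, so they do not measure fat tissue alone. Adipoq, the hormone adiponectin of fat cells, read 539, 393 and 401 in the colon pools, against 40.9, 14.9 and 31.8 in the jejunum pools (log2 difference 3.38, SE 0.35, adjusted p = 1.06e-05). Lipe, hormone-sensitive lipase, which other tissues also express, read 135, 91.8 and 152 in the colon pools, against 465, 1116 and 1174 in the jejunum pools (log2 difference -2.63, SE 0.30, adjusted p = 3.27e-05), so the list did not move as 1 group. Of 20 genes of the exocrine pancreas 3 rose and 1 fell (2 and 2 with the 18S block, 2 and 1 in the high-18S pools), with summed intensities of 2670 to 5410 in colon and 2626 to 4223 in jejunum. Sycn, syncollin of secretory granules, read 1449, 948 and 704 in the colon pools, against 18.6, 29.4 and 38.7 in the jejunum pools (log2 difference 4.51, SE 0.30, adjusted p = 6.76e-08), while Ctrb1, chymotrypsinogen, read 429.9, 1032 and 106 in the colon pools, against 750.2, 305 and 337 in the jejunum pools (adjusted p = 0.921). Of 15 genes of stomach and Brunner's glands 1 rose, the membrane mucin Muc1 (log2 difference 2.59), which many epithelia make, and it was called in both fits for 18S. Of 12 hepatocyte genes 1 rose, also in both fits for 18S, and 1 of 15 skeletal muscle genes fell, a call lost in the high-18S pools and without any 1 colon pool or jejunum pool 3.

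The comparison with the jejunum was set beside the values of the ileum and duodenum, which share the array fit. The jejunum pools enter both the colon and the ileum differences from the jejunum, so the differences are given side by side and not compared. Fabp1 averaged 10.2 ± 1.2 in the colon, 453 ± 362 in the ileum and 12518 ± 4858 in the jejunum (SD, n = 3 each), with an ileum minus jejunum log2 difference of -5.18 (adjusted p = 0.000115), beside -8.83 for colon minus jejunum. Lct and Cyp2b10 also had lower values in the ileum than in the jejunum, with ileum minus jejunum differences of -3.01 and -4.58 (adjusted p = 0.000174 and 8.11e-08). Among the 20 largest falls, Apoa4, Treh, Apoc2, Leap2 and Fbp1 were also called lower in the ileum (-2.92, -2.69, -3.85, -3.17 and -2.88). So were Tm4sf5, Slc26a6, Dnase1 and Ace (-1.68, -1.14, -2.97 and -3.13). Apoa1, Anpep, Lgals2 and Ccl25 were not called between ileum and jejunum (-0.02, -0.08, 0.19 and 0.35), nor were the remaining genes of the 20 largest falls. Among the rises, Car1, Lpo and Cyp2c55 were not called there either (-0.25, 0.20 and -0.21). Other rises were shared with the ileum. Saa2, Plet1, St6galnac6, Tspan1 and Tfcp2l1 were called higher in ileum than in jejunum (4.35, 1.95, 2.04, 1.94 and 1.46), and Car2 lower (-0.92). The clone-named 1810065E05Rik and 2610528A11Rik were also called higher in the ileum (3.81 and 2.17). Tmigd1, a membrane protein of the immunoglobulin family on epithelial cells, had 1065 ± 76.6 units in colon, 3347 ± 1686 in ileum and 30.1 ± 13.4 in jejunum, so that the ileum held the highest mean. Sycn and Car2 were also bright in the duodenum, at 1633 ± 333 and 1551 ± 373, against 28.9 ± 10.1 and 98.7 ± 33.1 in the jejunum. Plet1, Wfdc2 and Sptssb were called higher in the duodenum than in the jejunum (2.54, 2.74 and 1.66). Of the 20 largest falls, Ace, Dnase1 and Anpep alone were called lower in the duodenum than in the jejunum (-2.66, -2.67 and -1.68).

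**Figure D5:**
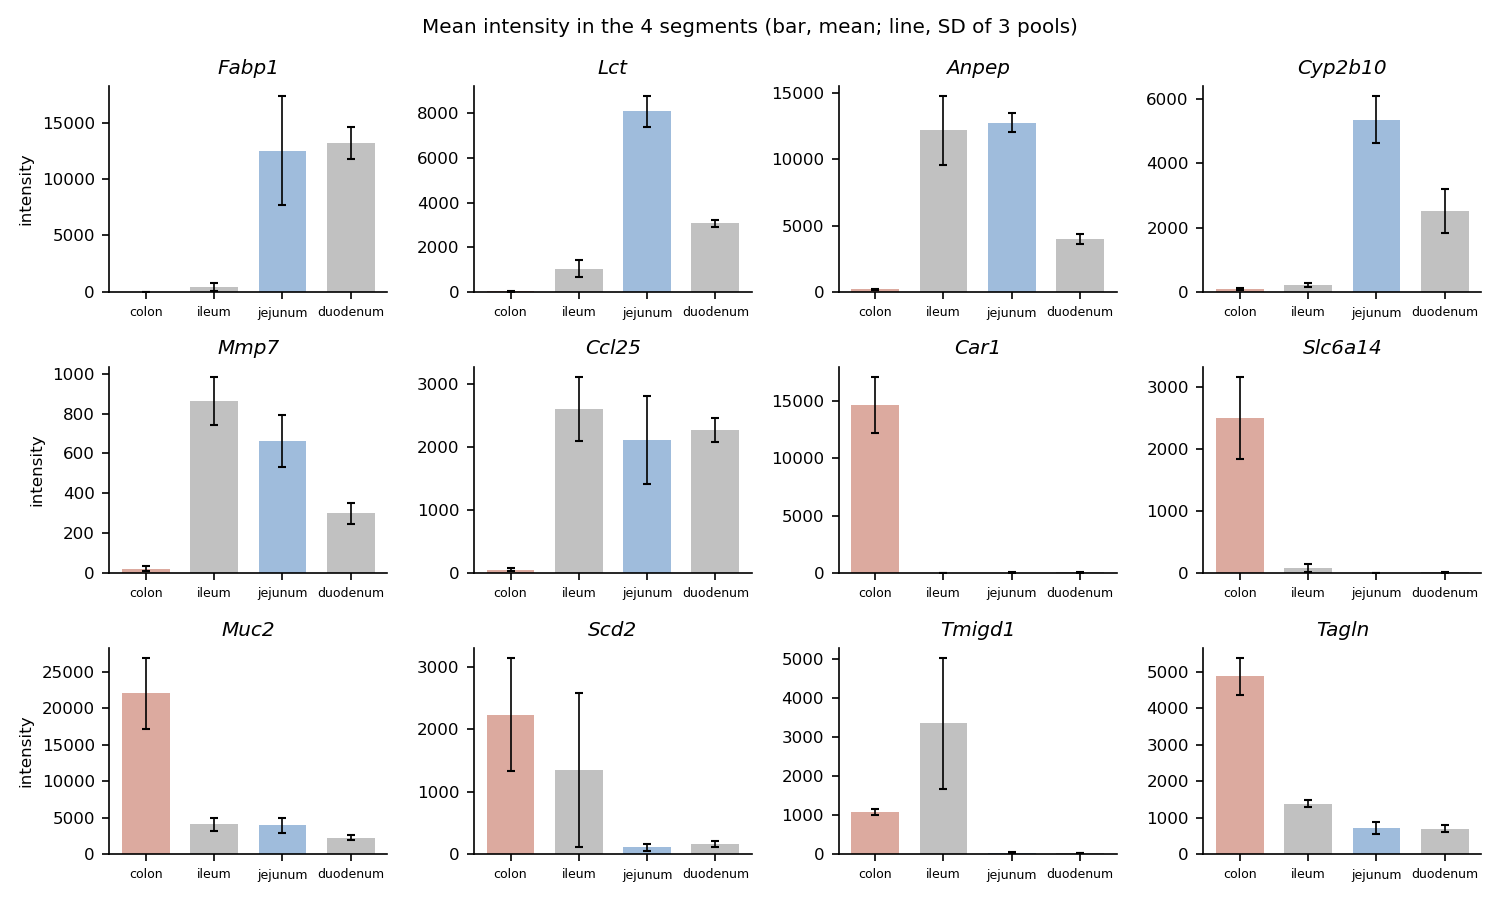
Mean intensity of 12 genes in colon, ileum, jejunum and duodenum, with the SD of 3 pools as a line. Fabp1, Lct and Cyp2b10 are low in both ileum and colon. Anpep, Mmp7 and Ccl25 are lowest in the colon, and Anpep is also lower in the duodenum (3974 ± 391) than in the jejunum (12767 ± 721). Car1, Slc6a14, Muc2 and Tagln are highest in the colon. Scd2 and Tmigd1 are also high in the ileum with a wide spread between pools.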

How the data were processed

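The authors deposited 1 table of linear intensities per array set, scaled so that the trimmed mean lay between 200.047 and 200.193 on every array, as the values show. The software behind these intensities is not given in the sources used here, and no detection calls were used, so dim values carry no background test. After 198 control probe sets were left out, 36701 remained, of which 29131 carried 1 gene symbol in GEO's platform annotation, 724 several and 6846 none. All but 1 of the single symbols were matched to RefSeq names, and 15944 genes resulted.

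Each array set was fitted in limma 3.58.1 (R 4.3.3) on log2 of the intensity plus 16, with 1 mean per segment over 12 arrays (3 pools of each of 4 segments), so that ileum and duodenum shared the estimate of the spread. Variances were moderated with an intensity trend, and Benjamini-Hochberg adjustment ran over the 3 sets together. The fit was tested on simulated data. A p-value weighs the difference between colon and jejunum against this shared, moderated spread between pools. Tables were handled in python 3.11.15 with pandas 2.3.3 and numpy 2.4.6. The brightest probe set stood for a gene, from set A, else B, else C. Array duodenum 3 of set C is titled duodenum but its source name says jejunum. Its title was followed, and it enters only the shared spread. Pool numbers recur between segments, but same-numbered pools did not deviate together (correlations of deviations -0.12 to 0.22), so they were not treated as pairs.

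Named genes are the 20 largest rises and the 20 largest falls (called, at least 2-fold, pools not overlapping, above the set median in the higher segment, clone names left out), from each list at most 6 called members (by adjusted p) and 3 uncalled ones (by mean level), and all regional markers. The members and the 61 gene lists were chosen with earlier results of these data known. Alternatives were the offset (1 or 64), centring, quantile normalization, a filter on low values, the arrays fitted, the variance trend, the adjustment, the pool number as a block, the 18S class, other probe sets and each pool left out.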

Additional observations from a re-analysis of the deposited data

How the results depend on the processing

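The fit behind the report called 3371 probe sets, 2131 higher and 1240 lower in the colon. Offsets of 1 and 64, quantile normalization, a filter on low values, the fit of only 6 arrays per set, no variance trend, adjustment within each set, the 18S block and leaving out duodenum 3 of set C gave 2733 to 3780 calls. Among the 8 pools of high 18S signal, where jejunum pool 1 is the only jejunum sample, 1557 were called, 923 higher, 634 lower and 1441 at least 2-fold. Centring gave 1164 higher and 1819 lower. Leaving out 1 pool gave 2325 to 3593 calls, 1366 to 2201 higher, 959 to 1392 lower and 2011 to 2940 at least 2-fold. With the pool number as a replicate block 3178 were called, 2002 higher and 1176 lower. The labels do not say what same-numbered pools share.

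Of the 285 called genes that the naming rule admits, 224 kept direction and call among the high-18S pools, 256 with the 18S block, 257 with centring and 265 under quantile normalization, and the others kept the direction. The rule picks small adjusted p or large differences in these same arrays, so a high share of kept calls was built in. Over all genes 8.8% were called higher and 5.55% lower, against 7.12% and 4.33% with the 18S block. The lower shares of all genes in the high-18S pools are given above. With the lower middle probe set 39 of the 285 genes lost their call and 11 turned direction, and with the upper middle one 38 and 11, in all 21 different genes that turned. Among the genes described, these were Aqp1 (0.54), Arg2 (0.46) and Lyz1 (0.70). Why probe sets of a gene differ was not tested. Signal over background limits the folds of genes that were dim in 1 segment: 29.7% of called genes lay below the set median in the segment with the lower mean.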
